A study of Mus musculus with 14 samples.

Results

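A set of 9 genes that draw neutrophils, are carried by them or act upstream of them was followed in the colon of mice with and without the miR-29ab1 locus: the chemoattractants Cxcl1, Cxcl2 and Cxcl5, the alarmins S100a8 and S100a9, the iron-binding lipocalin Lcn2, the gelatinase Mmp9, the AP-1 subunit Fosl1 and the cytokine Tnf. The genes were taken by name and make up 9 of the 54378 genes listed in both deposited tables. Total RNA was sequenced from C57BL/6N mice in 4 groups. WT mice (WT1 to WT4) and MiR-29ab1-/- mice (KO1 to KO4) received no dextran sulfate sodium (DSS), a detergent-like polymer that injures the colon lining, and 3 WT mice (DSSWT1 to DSSWT3) and 3 MiR-29ab1-/- mice (DSSKO1 to DSSKO3) drank 3.5% DSS for 3 days. The deletion was in the germline, so every cell of the knockout mice lacked the locus, and the study's methods give littermates of 8 to 12 weeks matched for age and sex, unless stated otherwise. The mice with DSS formed a separate experiment with its own table, so the effect of DSS and that of the experiment cannot be told apart. The labels name crypts of the small intestine and the study's methods name colon tissue. Levels are given in CPM (reads scaled to a common library size with TMM factors over the 14 mice). The summed level of the colon epithelium markers was 2188 to 5111 CPM without DSS and 11870 to 16940 CPM after it. The small intestine markers summed to 169 to 218 CPM and 223 to 254 CPM. Over the 14 mice, stroma and smooth muscle markers summed to 7.96 to 58.2 CPM and epithelial markers to 12398 to 33464 CPM. Whether the samples held the whole colon wall was not tested.

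CXCL1, CXCL2 and CXCL5 are secreted proteins that bind CXCR2 on neutrophils and draw them out of blood into tissue. S100A8 and S100A9 pair up as calprotectin, which neutrophils hold in large amounts and which is measured in stool as a sign of gut inflammation. LCN2 starves bacteria of iron and is made by both neutrophils and injured epithelium, MMP9 is stored in neutrophil granules and cuts matrix, and TNF and FOSL1 belong to the signals and transcription factors that switch on chemokine genes. In RNA taken from many cells at once, more cells of a type and more RNA per cell cannot be told apart.

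The knockout removes 2 miRNAs of one cluster on chromosome 6, whose shared seed is shown because it is the part that pairs with target mRNAs. The mature sequences are those of RefSeq on GRCm38.p6, written 5′ to 3′ with the seed (bases 2 to 8) in capitals. The locus of miR-29a-3p is chr6:31062673-31062694 and that of miR-29b-3p is chr6:31063025-31063047, both on the minus strand. The family member miR-29c-3p, whose seed is the same, lies on chromosome 1 at chr1:195037600-195037621 and outside the deletion, as does Mir29b-2, a further source of miR-29b-3p.
mmu-miR-29a-3p: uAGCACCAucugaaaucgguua
mmu-miR-29b-3p: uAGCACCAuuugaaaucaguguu
mmu-miR-29c-3p: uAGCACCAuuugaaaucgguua
The seed-matched site in an mRNA is TGGTGCT. In GENCODE vM21 (GRCm38), with the longest annotated 3′ end taken for each gene, 1 of the 9 genes held it, against 13.1% of 20997 genes and 6.8% of the 1073 genes whose 3′ end is about as long as that of Fosl1. That gene was Fosl1, in the transcript Fosl1-201, where the site covers bases 23 to 29 after the stop codon and is shown in capitals.
Fosl1 site: acatcccttgcTGGTGCTactccaagcca
The 3′ ends of the other 8 genes, 68 to 1494 bases long, held no match. The letters are a description and do not say whether the miRNA acts there. The precursor rows held too few reads to check the genotype. Mir29a was at 0 in all 14 mice and Mir29b-1 had 1 read each in KO3 and KO4 and 0 in the others.

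Libraries held 14231157 to 18185020 reads on genes without DSS and 20076719 to 23153149 after DSS, so that 3 reads, the limit that a count of 0 allows, correspond to 0.165 to 0.211 CPM and 0.130 to 0.149 CPM. This limit covers counting error only. Mitochondrial genes took 14.8% of the reads in DSSKO1 and 20.2% in DSSKO2, against 6.15% to 8.81% in the other 4 mice with DSS and 5.70% to 13.9% in the mice without DSS. The p-values given here measure the spread between these samples only.

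After DSS, all 9 genes had their highest level in DSSKO2 and their second highest in DSSKO1. Of 14868 genes compared, 9.1% had this order of mice. Both mice lay above every WT mouse with DSS in 9 of 9 genes, an arrangement found in 18.2% of those genes. The third knockout mouse, DSSKO3, lay above all 3 WT mice in 1 gene (Cxcl5), below them in 2 (Cxcl1 and Fosl1) and among them in 6. DSSKO1 and DSSKO2 together gave 82.4% (Tnf) to 95.5% (S100a8) of the reads of the 3 knockout mice with DSS. Relative to the highest WT mouse with DSS, the level was 1.66 to 6.36 times as high in DSSKO1 (median over the 9 genes 3.24), 2.25 to 9.46 times in DSSKO2 (median 5.50) and 0.363 to 1.18 times in DSSKO3 (median 0.600). The excess of the knockout group over the WT mice with DSS was thus carried by 2 of its 3 mice, joined by DSSKO3 for Cxcl5. DSSKO1 and DSSKO2 are also the mice with the largest mitochondrial share. The part of that share in the excess was not tested.

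**Figure D1:**
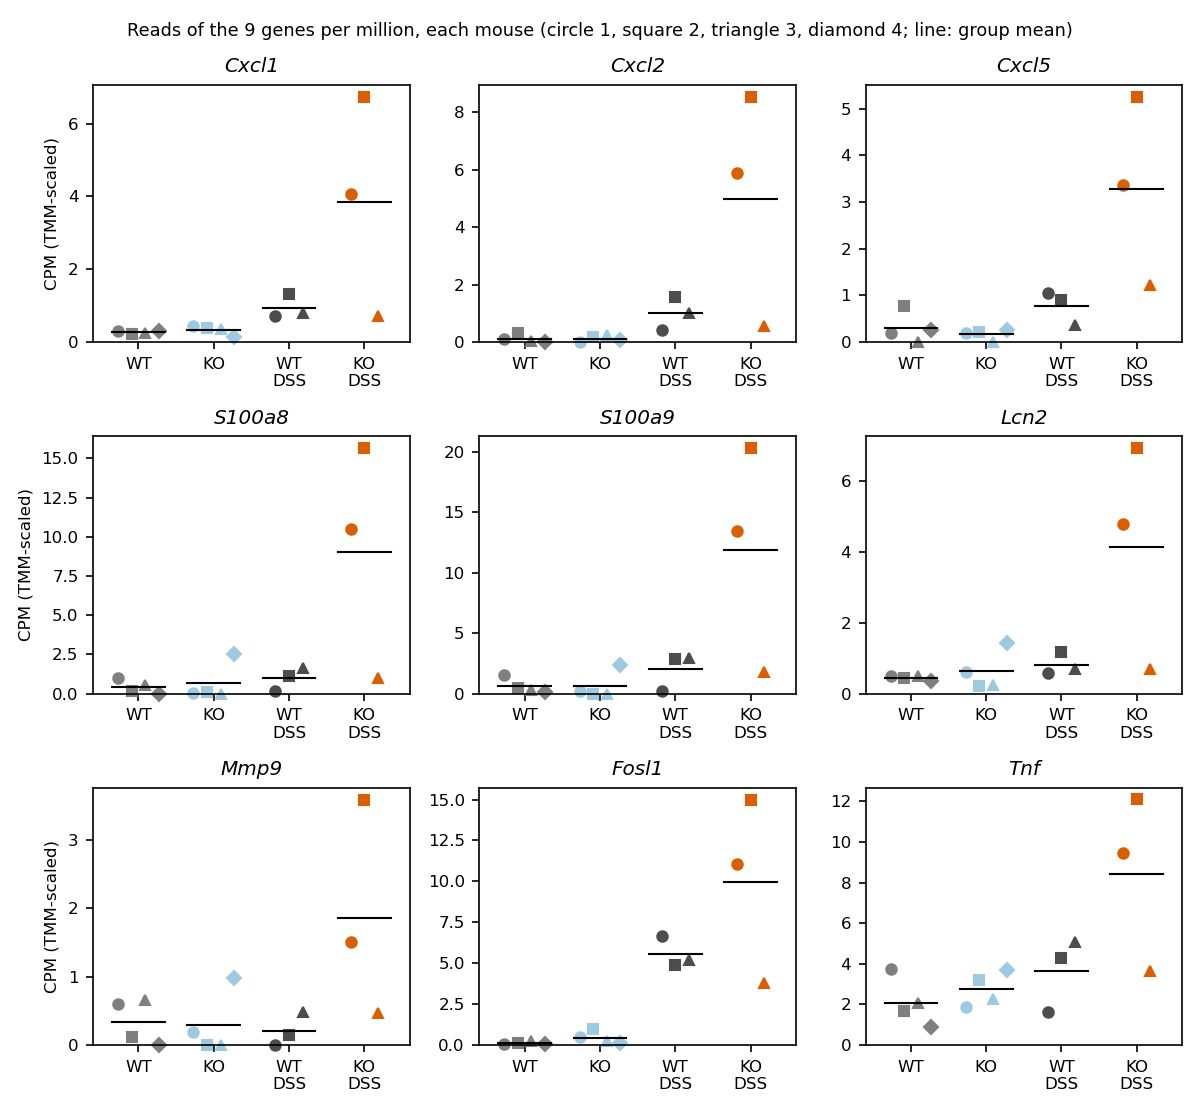
Level of each gene in CPM (vertical axis, linear, from 0, with its own scale in each panel) in every mouse of the 4 groups. Symbols give the mouse number (circle 1, square 2, triangle 3, diamond 4) and lines the group means, and the square and circle of the knockout group with DSS stand above all WT mice with DSS in all 9 panels, while the triangle lies at 0.564 CPM for Cxcl2 and at 0.705 CPM for Cxcl1.

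The chemoattractants are given first. For Cxcl1 (ENSMUSG00000029380, chr5:90891241-90893115), the reads without DSS were 6, 4, 5 and 6 in WT1 to WT4 and 7, 7, 6 and 2 in KO1 to KO4. After DSS they were 15, 28 and 15 in the WT mice and 70, 113 and 15 in the MiR-29ab1-/- mice. All 6 mice with DSS were above all 8 without it in CPM, and DSSKO3 fell just under the lowest WT mouse (0.705 against 0.709 CPM). The mean level was 0.270 ± 0.0418 CPM (SD, n = 4) in WT mice and 0.326 ± 0.136 (n = 4) in MiR-29ab1-/- mice without DSS, and 0.942 ± 0.328 (n = 3) and 3.84 ± 3.03 (n = 3) after DSS.

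For Cxcl2 (ENSMUSG00000058427, chr5:90903871-90905938), the reads without DSS were 2, 6, 1 and 0 in WT mice and 0, 3, 4 and 1 in MiR-29ab1-/- mice. With DSS the counts were 9, 33 and 19 in WT mice and 101, 143 and 12 in knockout mice. As with Cxcl1, every mouse with DSS exceeded every mouse without it, and the genotypes overlapped through DSSKO3. The mean was 0.120 ± 0.146 CPM (SD, n = 4) and 0.116 ± 0.104 (n = 4) without DSS, and 0.997 ± 0.564 (n = 3) and 4.99 ± 4.06 (n = 3) after DSS, with WT mice given first.

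For Cxcl5 (ENSMUSG00000029371, chr5:90759360-90761624), the reads without DSS were 4, 14, 0 and 5 in WT mice and 3, 4, 0 and 4 in MiR-29ab1-/- mice. After DSS they were 22, 19 and 7 in WT mice and 58, 88 and 26 in knockout mice. Cxcl5 was the member whose genotypes did not overlap after DSS, with WT mice between 0.374 and 1.04 CPM and knockout mice between 1.22 and 5.25 CPM. In this comparison 5.64% of genes had every knockout mouse above every WT mouse.

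The promoters of Cxcl1 and Cxcl2 are shown because these 2 neighbouring genes moved together. RefSeq promoters of GRCm38.p6, from 250 bases before to 50 bases after the gene start, were given for 6 of the 9 genes (Cxcl1, Cxcl2, S100a8, S100a9, Lcn2 and Tnf). A form of the NF-kB motif, GGGNNTTTCC, read on both strands, was found in 2 of the 6, and in 1.63% of 32851 promoters. Both genes held it at 2 places, one of them with identical motif letters in the 2 genes, and the motif is in capitals below. Distances are counted from the RefSeq start, which for both genes differs from the start of the positions given above.
Cxcl1, 89 bases before the start, opposite strand of the motif, chr5:90891147-90891174: cggttgcagGGAAACACCCtgtactccg
Cxcl1, 71 bases before the start, chr5:90891165-90891192: ctgtactccGGGAATTTCCctggcccgg
Cxcl2, 97 bases before the start, chr5:90903793-90903820: ctgagctcaGGGAATTTCCctggtcccc
Cxcl2, 78 bases before the start, chr5:90903812-90903839: ctggtccccGGGCTTTTCCagacatcgt
The AP-1 motif TGANTCA was in none of the 6 and in 7.81% of all promoters, and the C/EBP motif TTNNGNAA in 5 of the 6 (all but Cxcl1) and in 40.7% of all promoters. A match describes letters in this window and is no site of binding, and the absence of a match says nothing about the factor.

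The calprotectin genes had the highest mean levels per kilobase of gene length in knockout mice with DSS. For S100a8 (ENSMUSG00000056054, chr3:90668978-90670035), the reads without DSS were 20, 3, 11 and 0 in WT mice and 1, 2, 0 and 39 in MiR-29ab1-/- mice. After DSS, WT mice had 4, 24 and 31 reads and knockout mice 181, 262 and 21. KO4 without DSS, at 2.53 CPM, was above all 3 WT mice with DSS and above DSSKO3, so that the groups with and without DSS overlapped.

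For S100a9 (ENSMUSG00000056071, chr3:90692632-90695721), which neighbours S100a8, the reads without DSS were 31, 8, 6 and 2 in WT mice and 4, 0, 0 and 36 in knockout mice. With DSS the counts were 4, 61 and 55 in WT mice and 232, 340 and 38 in knockout mice. The 2 genes thus shared their high mice in each group: WT1 and KO4 without DSS, and DSSKO1 and DSSKO2 after it. The mean level of S100a9 was 2.00 ± 1.57 CPM (SD, n = 3) in WT mice with DSS and 11.9 ± 9.36 (n = 3) in knockout mice with DSS, and that of S100a8 was 0.991 ± 0.742 (n = 3) and 9.05 ± 7.44 (n = 3). In DSSWT1 both genes had 4 reads, below WT1 without DSS.

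For Lcn2 (ENSMUSG00000026822, chr2:32384633-32388252), the reads without DSS were 10, 8, 10 and 7 in WT mice and 10, 4, 4 and 22 in MiR-29ab1-/- mice. After DSS they were 12, 25 and 13 in WT mice and 82, 116 and 15 in knockout mice. KO4 (1.43 CPM) was again above all 3 WT mice with DSS, of which the highest had 1.18 CPM. The mean was 0.451 ± 0.0636 CPM (SD, n = 4) and 0.626 ± 0.565 (n = 4) without DSS and 0.812 ± 0.321 (n = 3) and 4.13 ± 3.16 (n = 3) after it.

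For Mmp9 (ENSMUSG00000017737, chr2:164940780-164955850), the reads without DSS were 12, 2, 13 and 0 in WT mice and 3, 0, 0 and 15 in MiR-29ab1-/- mice. After DSS, WT mice had 0, 3 and 9 reads and knockout mice 26, 60 and 10. It was the lowest of the 9 genes per kilobase of gene length in both groups with DSS and the only one that WT mice with DSS showed at a lower mean (0.207 ± 0.247 CPM, SD, n = 3) than WT mice without (0.339 ± 0.332, n = 4).

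For Fosl1 (ENSMUSG00000024912, chr19:5447547-5455946 in the table without DSS), which encodes the AP-1 protein FRA-1, the reads without DSS were 1, 2, 5 and 1 in WT mice and 8, 17, 4 and 2 in MiR-29ab1-/- mice. With DSS the counts were 141, 104 and 97 in WT mice and 190, 251 and 80 in knockout mice. All 6 mice with DSS were above all 8 without it, as for Cxcl1 and Cxcl2, and the gap was wide, from 0.956 CPM in the highest mouse without DSS to 3.76 CPM in DSSKO3. The mean was 0.116 ± 0.0946 CPM (SD, n = 4) and 0.453 ± 0.369 (n = 4) without DSS and 5.58 ± 0.951 (n = 3) and 9.93 ± 5.69 (n = 3) after it.
The 2 tables give Fosl1 different lengths, 2033 bases without DSS and 1707 bases after it, while the other 8 genes have the same length in both. Fosl1 also overlaps Ccdc85b on the opposite strand, and the use of strand in counting is not given in the sources used here. Ccdc85b had 284 to 483 reads without DSS and 348 to 647 after it.

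For Tnf (ENSMUSG00000024401, chr17:35199381-35202007), the reads without DSS were 76, 30, 41 and 17 in WT mice and 30, 57, 39 and 57 in MiR-29ab1-/- mice. After DSS they were 34, 91 and 95 in WT mice and 163, 203 and 78 in knockout mice. Tnf had the most reads of the 9 genes without DSS and the smallest rise in the knockout mice, and WT1 without DSS was above DSSWT1 and DSSKO3.

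Per kilobase of gene length, the order of mean levels in knockout mice with DSS was S100a9 (22.7 CPM per kilobase), S100a8 (13.04), Fosl1 (5.82), Tnf (5.14), Cxcl2 (2.41), Cxcl1 (2.05), Cxcl5 (1.76), Lcn2 (1.58) and Mmp9 (0.524). In WT mice with DSS it was S100a9 (3.83), Fosl1 (3.27), Tnf (2.23), S100a8 (1.43), Cxcl1 (0.502), Cxcl2 (0.482), Cxcl5 (0.413), Lcn2 (0.310) and Mmp9 (0.0585). The values of neighbours in these orders overlapped between mice in every case except Lcn2 and Mmp9 in WT mice.

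Whether genotype changed the genes after DSS was tested with edgeR's quasi-likelihood test over 14908 genes. Of the 9 genes, 8 passed the filter on low counts and Mmp9 did not. All 8 had a positive estimate, higher in MiR-29ab1-/- mice, with log2 fold changes of 0.82 (Fosl1) to 3.19 (S100a8) and a median of 2.18, against -0.0051 over all genes. No member was called at an adjusted p of 0.05, and 0.0134% of all genes were called higher. The unadjusted p was under 0.05 for 4 members (Cxcl1, Cxcl5, S100a8 and Lcn2), against 3.98% of all genes. DESeq2 gave 0 members adjusted and 8 unadjusted.

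Cxcl5 had the smallest p, with a log2 fold change of 2.06 (SE 0.58, 95% interval 0.74 to 3.38, adjusted p = 0.646 by edgeR with Benjamini-Hochberg adjustment). Lcn2 followed with 2.32 (SE 0.77, 95% interval 0.51 to 4.13) and Cxcl1 with 2.00 (SE 0.74, 95% interval 0.28 to 3.73). The interval of S100a8 ran from 0.23 to 6.15 and that of S100a9 from -0.56 to 5.69. For Mmp9, an exact permutation test on log2(CPM + 1) gave a two-sided p = 0.2, where the smallest p that 3 mice against 3 allow is 0.1, at a difference in means of 1.11 on that scale.

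Leaving out DSSKO3 raised the members with an adjusted p under 0.05 from 0 to 3 (Cxcl1, Cxcl2 and Lcn2, edgeR), and those with an unadjusted p under 0.05 from 4 to all 8. Over all genes the same step raised the genes called higher from 2 to 54 adjusted and from 593 to 1288 unadjusted. Mmp9 then passed the filter only through DSSKO1 and DSSKO2 (26 and 60 reads), so its call is not counted. Without DSSKO2 the members with an unadjusted p under 0.05 numbered 1. With DSSKO1 and DSSKO2 both left out, which compares the lone DSSKO3 with 3 WT mice, the log2 fold changes were between -0.82 (Cxcl2) and 0.65 (Cxcl5) and 5 of the 8 were below 0.

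**Figure D2:**
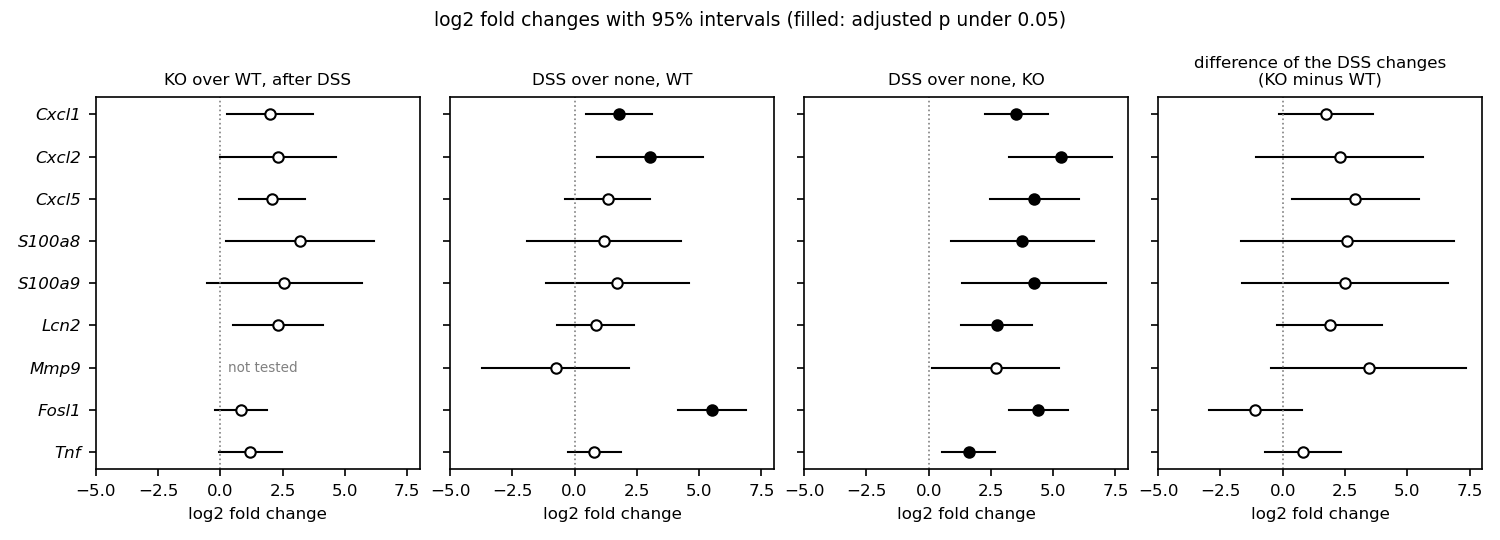
log2 fold change (horizontal axis) of each gene in 4 comparisons, with 95% intervals from edgeR. Filled circles have an adjusted p under 0.05, which holds for none of the genes between genotypes, for 3 genes with DSS in WT mice, for 8 with DSS in MiR-29ab1-/- mice and for none in the test of the difference between the latter 2.

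Without DSS, no difference between genotypes was detected in the 9 genes at this depth. Tnf was the only one of the 9 genes with enough reads for the filter, at a log2 fold change of 0.39 (SE 0.42, 95% interval -0.53 to 1.31, adjusted p = 1.00 by edgeR with Benjamini-Hochberg adjustment). No member was called, while 0.0194% of 15441 genes were called higher at an adjusted p under 0.05 and 2.09% at an unadjusted one. The other 8 were compared by two-sided exact permutation of log2(CPM + 1), and the smallest p among them was 0.0857 (Fosl1, knockout minus WT 0.35), where 0.0286 is the smallest that 4 mice against 4 allow.

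In WT mice, DSS was accompanied by higher levels of 3 of the 9 genes at an adjusted p under 0.05, where 20.2% of 16370 genes were called higher. Fosl1 rose by a log2 fold change of 5.51 (SE 0.64, adjusted p = 2.46e-05), Cxcl2 by 3.02 (SE 0.99, adjusted p = 0.0278) and Cxcl1 by 1.78 (SE 0.62, adjusted p = 0.0345), all by edgeR with Benjamini-Hochberg adjustment. At an unadjusted p under 0.05 the count was the same 3, against 24.3% of all genes. In 4 of the 9 genes (Cxcl1, Cxcl2, Lcn2 and Fosl1) every WT mouse with DSS was above every WT mouse without it, as in 22.2% of all genes. The calls of Cxcl1 and Cxcl2 were not steady: an adjusted p under 0.05 was kept in 1 and 2 of the 7 fits that left out 1 mouse, against 7 of 7 for Fosl1. With no filter on low counts Cxcl2 had an adjusted p of 0.0748 (edgeR). The other values in WT mice were log2 fold changes of 1.34 for Cxcl5, 1.17 for S100a8, 1.72 for S100a9, 0.84 for Lcn2, 0.80 for Tnf and -0.76 for Mmp9, none past the test.

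In MiR-29ab1-/- mice, 8 of the 9 genes were higher with DSS at an adjusted p under 0.05, where 23.2% of all genes were called higher. Cxcl5 and S100a9, like Cxcl1, Cxcl2 and Fosl1, passed the filter only with the reads of mice with DSS. This count is thus not independent of the filter. The largest log2 fold change was that of Cxcl2 (5.30, SE 0.96, adjusted p = 0.000579), followed by Fosl1 (4.41, SE 0.55, adjusted p = 2.84e-05), Cxcl5 (4.25, SE 0.83, adjusted p = 0.000856) and S100a9 (4.23, SE 1.32, adjusted p = 0.0213), by edgeR with Benjamini-Hochberg adjustment. S100a8 (3.77), Cxcl1 (3.51), Lcn2 (2.73) and Tnf (1.61) were also called, and Mmp9 had 2.69 (SE 1.18, 95% interval 0.14 to 5.24, adjusted p = 0.0788). The calls of S100a8 and S100a9 ended with no filter on low counts (adjusted p = 0.0803 and 0.0516), and that of S100a8 also in a fit of the knockout mice alone (0.0795), in which Cxcl2 was not tested, all by edgeR. Each of these settings left 6 of the 9 genes called. The median of the 9 was 3.77, against -0.029 over all genes. At an unadjusted p under 0.05 all 9 were higher, against 26.3% of all genes, and in 4 of the 9 (Cxcl1, Cxcl2, Cxcl5 and Fosl1) the groups did not overlap, as in 24.5% of all genes.

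DSSKO1 and DSSKO2 were left out together after they were seen to be highest in all 9 genes, so smaller changes follow from the choice. In the lone DSSKO3 the log2 fold change was 3.04 for Fosl1, 2.85 for Cxcl5, 2.20 for Cxcl2, 1.11 for Cxcl1 and 0.20 for Lcn2. With 1 knockout mouse left out at a time, Cxcl1, Cxcl2, Cxcl5, Lcn2 and Fosl1 kept their calls in 7 of 7 fits and Tnf in 6 of 7. S100a8 kept its call in 2 of the 7 fits that left out 1 knockout mouse and S100a9 in 5 of 7. Without KO4, the mouse with 39 and 36 reads of these 2 genes, their log2 fold changes were both 7.11, and Mmp9 was called too, at 4.81.

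**Figure D3:**
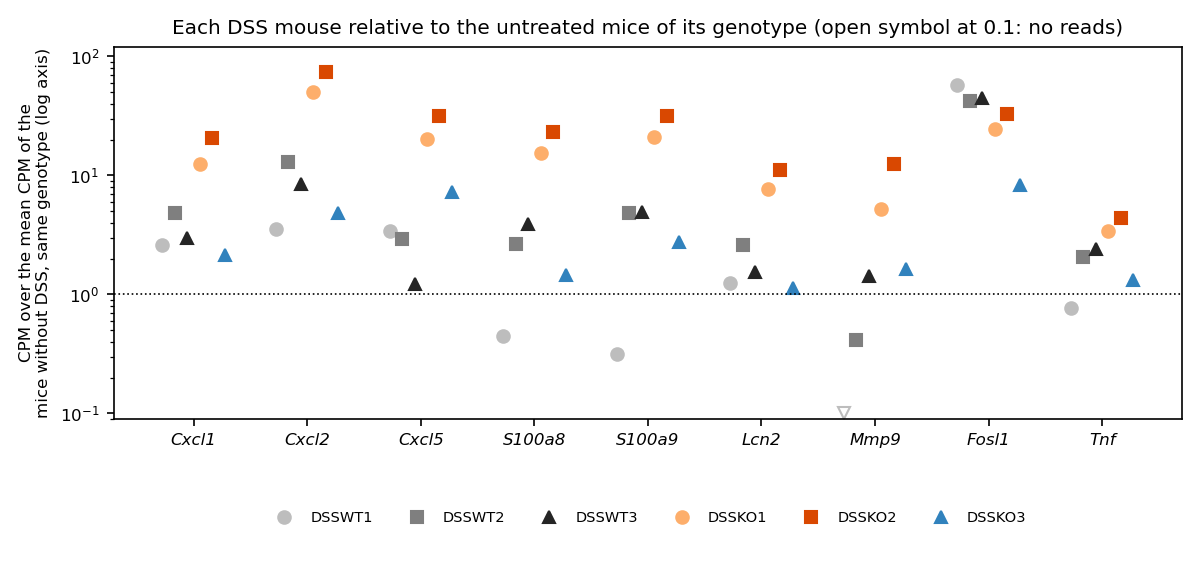
CPM of each mouse with DSS divided by the mean CPM of the mice of its genotype without DSS (vertical axis, logarithmic; dotted line at 1; open triangle at 0.1 for a value of 0). The light and dark orange symbols of DSSKO1 and DSSKO2 lie between 3.44 and 73.3, the blue triangle of DSSKO3 between 1.13 and 8.30, and Fosl1 is the gene in which the WT mice have the highest ratios, 42.3 to 57.5.

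By mouse, the median ratio to the untreated mice of the same genotype over the 9 genes was 15.6 in DSSKO1, 23.1 in DSSKO2 and 2.16 in DSSKO3, against 1.26, 2.90 and 2.96 in DSSWT1, DSSWT2 and DSSWT3. DSSKO1 and DSSKO2 were above all 8 mice without DSS in 9 of 9 genes. DSSKO3 was above them in 4, DSSWT1 in 4, DSSWT2 in 6 and DSSWT3 in 5. The share of all genes in which a single mouse lay above all 8 was not computed. Whether these counts are unusual can therefore not be told. DSSWT1 was the lowest of the 6 mice in 6 genes, and for S100a8 (0.443), S100a9 (0.318), Tnf (0.769) and Mmp9 (0) it was below the mean of the untreated WT mice.

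Whether DSS changed the genes more in MiR-29ab1-/- than in WT mice was tested as an interaction in 1 model over the 14 mice. The estimate was above 0 in 8 of the 9 genes, with a median of 2.28, and below 0 for Fosl1 (-1.10, SE 0.88). No member was called at an adjusted p under 0.05 by edgeR, and 0% of all genes were. A single member, Cxcl5, had an unadjusted p under 0.05 (2.91, SE 1.19, 95% interval 0.36 to 5.45, adjusted p = 0.987), against 1.73% of all genes called higher in that way. DESeq2 gave the same counts, 0 and 1. The 95% intervals of the other 8 included 0 and reached from -2.98 to 7.38. The larger number of calls in the knockout mice is therefore not a shown difference between genotypes.

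The mice that were high in one gene were high in the others. Over the 6 mice with DSS, Pearson's r of log2 CPM between pairs of the 9 genes was 0.642 to 0.997 (36 pairs, median 0.888), and r of each gene with the mean of the other 8 was highest for Lcn2 (0.984) and lowest for Cxcl5 (0.814) and Fosl1 (0.823). These r describe 6 libraries that include 2 high ones, and genes of 1 library share its depth and composition. The level in DSSKO2 was 1.28 times (Tnf) to 2.37 times (Mmp9) that in DSSKO1.

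Outside the list, the 5 genes whose log2 CPM followed the mean of the 9 most closely over the 6 mice, of 14822 genes compared, were S100a10 (r = 0.998), Gramd1b (0.998), Myl12a (0.998), Ccdc90b (0.995) and Osgin1 (0.994). Such values were not rare, since 542 genes (3.66%) had r above 0.9 and 620 had r below -0.9. S100a10, which encodes the partner of annexin A2, had 10763, 12639 and 11260 reads in the WT mice and 14873, 15690 and 12222 in the knockout mice with DSS. Over all 14 mice r was 0.821 for S100a10 and -0.356 for Gramd1b, so that likeness within the DSS mice did not carry over to the whole series for the latter.

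Of the receptors and relatives of the chemoattractants, Cxcl3 had 0 reads in all 8 mice without DSS, 1, 2 and 1 in WT mice with DSS and 9, 11 and 0 in knockout mice with DSS. Cxcr2, the receptor on neutrophils, had 5 reads in KO4 and 0 in the other 7 mice without DSS, and 0, 10 and 7 in WT and 15, 23 and 4 in knockout mice after it. Both had their highest reads in DSSKO2 and DSSKO1. Of the 7 genes of that list 6 were too low for the filter in every comparison, these 2 included, and the remaining gene, Pf4, was not called in any comparison at an adjusted p under 0.05 by edgeR.

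Among the signals upstream of neutrophil recruitment (14 genes), Il1b followed the same mice. It had 0 to 8 reads without DSS, 25, 102 and 54 in WT mice with DSS and 157, 225 and 31 in knockout mice with DSS. Its log2 fold change with DSS was 5.37 (SE 0.95, adjusted p = 0.000809) in WT and 5.09 (SE 0.82, adjusted p = 0.00025) in MiR-29ab1-/- mice by edgeR, and 1.43 (SE 0.87, adjusted p = 0.716) between genotypes after DSS. Il17a had at most 4 reads, Il6 at most 2 and Csf3 at most 6 in any mouse, which is too few for a comparison. Of the 7 genes of this list that were tested, Il1b rose in WT mice, and Il1b and Il17rc (0.43) rose and the interleukin-1 receptor gene Il1r1 (-1.02) fell in knockout mice. Over all genes, 20.2% and 23.2% were called higher. Il1b passed the filter only through mice with DSS, so its calls are not independent of the filter.

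Most of the other alarmin genes tested rose in both genotypes. Of 17 genes, 11 were tested, of which 8 were called higher with DSS in WT and 9 in MiR-29ab1-/- mice. Over all genes, 20.2% and 23.2% were called higher, and of the 11 epithelial markers 10 were in each genotype. The medians over the 11 alarmin genes were 1.15 and 1.45 on the log2 scale. The alarmin genes called were S100a1, S100a6, S100a10, S100a11, S100a13, S100a14, S100a16 and Anxa1 in both, and Il33 (1.40, SE 0.55) in knockout mice. The summed CPM of the list was 1026 to 1699 without DSS, 2896 to 3569 in WT mice with DSS and 3318 to 4473 in knockout mice with DSS. Among the receptors for S100A8/A9 and LCN2 (9 genes, 7 tested), Tlr2, Cd14 and Bsg rose with DSS in both genotypes, Ly96 (1.24) rose in knockout mice, and Slc22a17, a receptor for LCN2, fell in both (-1.39 and -1.60). The tables give different lengths for Anxa1, Cd14 and, among the genes that follow, Nfkb2.

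Among other matrix proteases and inhibitors (17 genes, 9 tested), Mmp28 fell with DSS in WT mice (-0.59), and in knockout mice the neutrophil collagenase Mmp8 rose (3.08, SE 1.19, adjusted p = 0.0472 by edgeR) and the matrilysin gene Mmp7 fell (-1.13). Of the TNF receptors and NF-kB target genes, 18 of 18 were tested. With DSS, Ier3, Tnfrsf1a, Relb, Nfkbia, Tnfaip3 and Nfkb2 rose in both genotypes and Tnfaip2 in knockout mice as well (6 and 7 of 18, medians 0.41 and 0.53), where 20.2% and 23.2% of all genes were called higher. Between genotypes after DSS none of the 18 was called at an adjusted p under 0.05 by edgeR. The unadjusted p was under 0.05 for 4 of them, with higher levels in knockout mice, against 3.98% of all genes: Nfkbiz (0.82), Zc3h12a (0.71), Tnfaip3 (0.62) and Nfkbia (0.38).

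Most other AP-1 genes were higher with DSS, as Fosl1 was. Of 12 other AP-1 genes 11 were tested, and the same number, 9, was called higher with DSS in WT and in MiR-29ab1-/- mice. Over all genes, 20.2% were called higher in WT and 23.2% in MiR-29ab1-/- mice. Fosb rose by 7.16 and 7.66, Atf3 by 4.78 and 5.01, Jund by 4.64 and 4.76, Fos by 4.51 and 4.62, Jun by 3.64 and 3.96 and Junb by 2.03 and 2.40 on the log2 scale, WT mice first, and Batf2, Maff and Mafk by 0.86 to 1.78. None differed between genotypes after DSS at an adjusted p under 0.05 by edgeR. Their summed level was 428 to 559 CPM in the 8 mice without DSS and 5066, 2982 and 2526 CPM in DSSWT1 to DSSWT3 and 4880, 5719 and 3634 CPM in DSSKO1 to DSSKO3. DSSWT1, the lowest mouse in 6 of the 9 genes, was thus the second highest in AP-1. For Fosl1 it ranked above DSSWT2, DSSWT3 and DSSKO3. Most AP-1 genes are immediate early genes that also respond to the handling of tissue, which cannot be told apart from DSS here, since the mice with DSS formed a separate experiment.

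**Figure D4:**
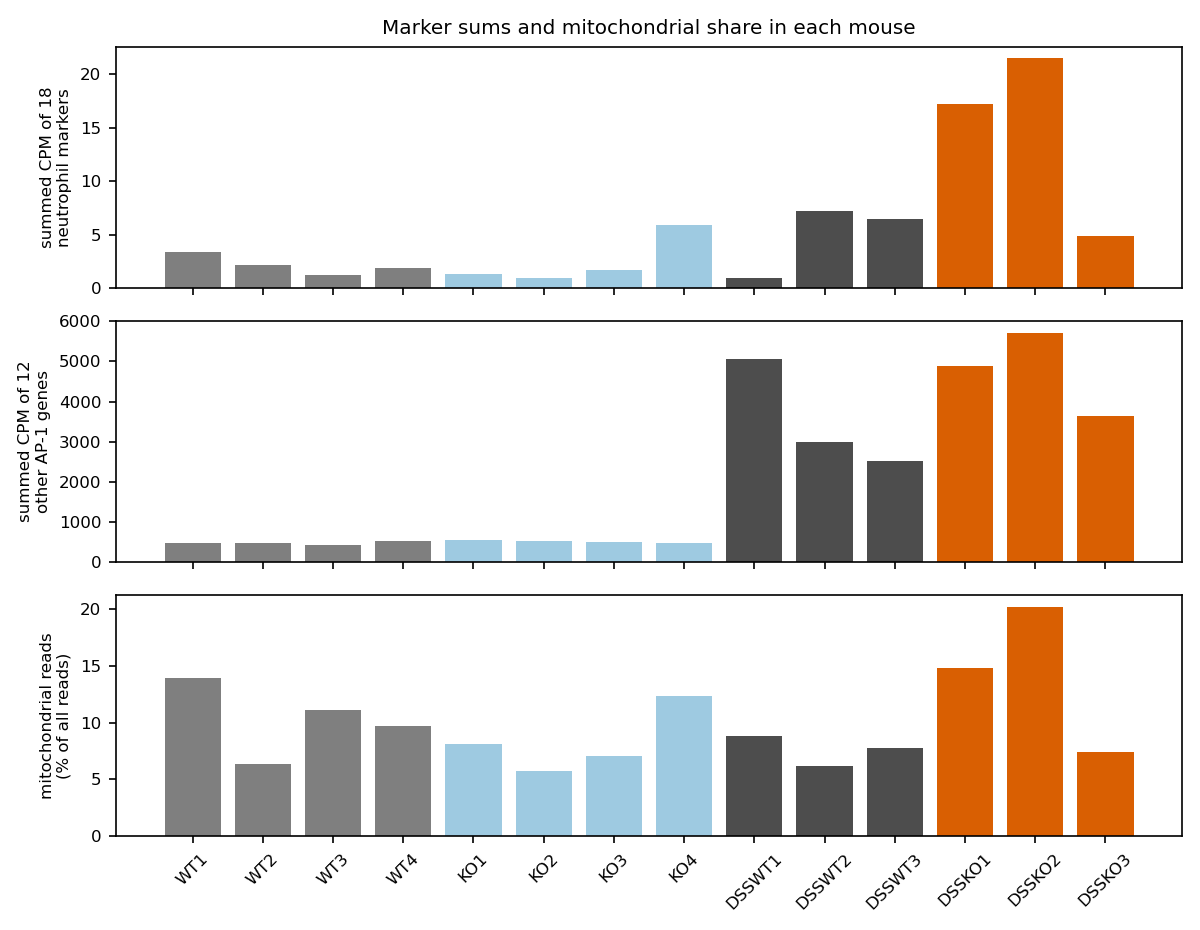
Summed CPM of 18 neutrophil markers, without Cd177 and Ly6g (top), summed CPM of 12 AP-1 genes other than Fosl1 (middle) and share of mitochondrial reads in percent (bottom) for each mouse, one bar a mouse, all axes from 0. The 18-marker sum and the mitochondrial share are highest in DSSKO1 and DSSKO2 (17.3 and 21.5 CPM, 14.8% and 20.2%), whereas the AP-1 sum is high in all 6 mice with DSS. Cd177 and Ly6g were left aside after their values were seen. With both included, DSSKO1 has the lowest sum of the 6 mice with DSS (484 CPM).

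Most of the less abundant neutrophil markers were highest in the mice that were highest in the 9 genes, whereas the sum of the whole list was not. Of a list of 20 such markers, 2 held most of the reads: Cd177 (284 to 1003 CPM), which fell with DSS in both genotypes (log2 fold changes -0.69 and -1.17), and Ly6g (5.28 to 228 CPM), which rose in both (2.78 and 3.27). With both included, the list summed to 497, 599 and 582 CPM in DSSWT1 to DSSWT3 and to 484, 534 and 575 CPM in DSSKO1 to DSSKO3, so that DSSKO1 was lowest of the 6. Cd177 was also lowest in DSSKO2 (284 CPM) and DSSKO1 (350 CPM). Ly6g was highest in these 2 mice (228 and 116 CPM), against 50.7 to 104 CPM in the other 4 mice with DSS. Cd177 and Ly6g were left aside after their values were seen. Without DSS, the sum of the other 18 ranged from 1.21 to 3.36 CPM (WT) and from 0.956 to 5.90 CPM (knockout). After DSS they summed to 0.992, 7.24 and 6.51 CPM in DSSWT1 to DSSWT3 and 17.3, 21.5 and 4.89 CPM in DSSKO1 to DSSKO3. Without DSS the highest mice were KO4 (5.90) and WT1 (3.36), the same 2 that were highest in S100a8 and S100a9. Of these 18 markers, 13 had both DSSKO1 and DSSKO2 above the other 4 mice with DSS, as had 12.8% of all genes with at least 1 read after DSS, while Elane was at 0 in all 14 mice and Mpo at 0 in all 6 with DSS. Csf3r, which encodes the receptor for granulocyte colony-stimulating factor, had 3, 28 and 16 reads in WT mice and 45, 68 and 5 in knockout mice with DSS, and Ltf had 9, 63 and 31 and 88, 79 and 56. Of the whole list 8 were tested between genotypes after DSS, none was called at an adjusted p under 0.05 by edgeR, and Clec4e (1.76) had an unadjusted p under 0.05. Of 7 tested with DSS, Ly6g was the marker called higher in WT mice. In knockout mice, Ly6g, Csf3r (4.16), Ltf (2.74) and Il1r2 (5.24) were called higher. Without DSS, Csf3r had at most 8 reads and Il1r2 at most 7. Ltf had 24 reads in KO4, 23 in WT1 and at most 8 in the other mice without DSS. Csf3r, Ltf and Il1r2 thus passed the filter only with the reads of mice with DSS, so their calls are not independent of the filter. The part of neutrophil number in the levels of the 9 genes was not tested.

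DSSKO1 and DSSKO2 were also the highest 2 of the 6 mice with DSS in the summed T cell, stroma and smooth muscle, monocyte and macrophage, epithelial and red blood cell lists, but not in the B cell and plasma cell list or the squamous and small intestine epithelium lists. In the colon epithelium list they were the lowest 2, at 12024 and 11870 CPM against 12895 to 16940 CPM. The monocyte and macrophage markers (13 genes) summed to 8.83 to 30.2 CPM without DSS. After DSS the sums were 22.3, 32.1 and 40.0 CPM in the WT mice and 40.8, 60.2 and 24.3 CPM in DSSKO1 to DSSKO3, so that DSSKO2 was highest and DSSKO1 hardly above DSSWT3. The red blood cell genes were at 62.7 CPM in DSSKO2 and at 2.26 to 9.83 CPM in the other 5 mice with DSS, so that DSSKO2 stood apart and DSSKO1 did not. The squamous epithelium markers (14 genes) summed to 2.48 to 8.18 CPM in the 14 mice, with Trp63, Sprr3, Sprr1b, Krtdap and Ivl at 0 in all of them. The epithelial markers (11 genes) were at 26966 to 33464 CPM in the 6 mice with DSS and 12398 to 16898 CPM in the 8 without. T cell markers summed to 33.5 to 168 CPM without DSS, 46.5 to 92.5 CPM in WT mice with DSS and 155, 95.6 and 66.2 CPM in DSSKO1 to DSSKO3. Stroma and smooth muscle markers were at 7.96 to 35.5, 24.9 to 39.9 and 19.6 to 58.2 CPM in the same 3 sets of mice, and B cell and plasma cell markers at 3.49 to 33.5, 3.21 to 14.6 and 3.01 to 11.8 CPM. The part of these cell types in the levels of the 9 genes was not tested.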

How the data were processed

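For each experiment the authors deposited 1 table with counts as read, without normalization. FPKM values (14 columns) and the fold changes and p values of the authors' comparisons stand beside them and were not used here. The submitters' processing notes name HISAT2 and DESeq2, and the genome build, annotation, counter and use of strand are not given in the sources used here. Positions of 9 of 9 genes without DSS and of 8 of 9 after DSS equal those of GENCODE vM21 (GRCm38).

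Counts were filtered with filterByExpr (minimum count 10, minimum total 15), scaled by TMM and tested with glmQLFit and glmQLFTest (robust) of edgeR 4.0.16 in R 4.3.3, with Benjamini-Hochberg adjustment over all genes tested. Genotypes were compared within each table. The DSS and interaction contrasts used 1 model over 14 mice and 54378 shared genes, of which 96.8% have the same length in both tables. CPM values use TMM factors over the 14 mice. Genes under the filter were compared by two-sided exact permutation of log2(CPM + 1). The code was tested on simulated data. The columns of mice with DSS carry numbers 1 to 3 and not the numbers of the labels, so they were placed by group, and DSSKO1 and the like are column names.

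Named were the 9 genes, list genes called or with the smallest p, and the 5 genes most like the mean of the 9. The 9 genes and all lists were chosen with earlier results of these data known. Alternatives were DESeq2 1.42.0, RLE size factors, other filters, all 14 mice in 1 model, mice of 1 genotype, a replicate block, CPM by total count and each mouse left out. Sequences came from RefSeq tables on GRCm38.p6 and GENCODE vM21 transcripts. Figures were drawn with matplotlib 3.10.9. Samples that the study excluded were not analysed here.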

Additional observations from a re-analysis of the deposited data

Results flagged for a closer look

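In the MiR-29ab1-/- mice without DSS, KO4 stood apart from the other 3 in S100a8 at 2.53 CPM (39 reads, against 0 to 2) and in S100a9 at 2.34 CPM (36 reads, against 0 to 4). Both gaps to the nearest mouse exceeded Dixon's 95% critical value for 4 mice. Of the 18 groups tested (9 genes in 2 groups), 2 were picked out in this way. Chance picks out about 1 in 20 where values are normally distributed, which CPM from counts near 0 are not. Both picks were the same mouse in 2 neighbouring genes, so they are not independent. Among the mice without DSS, KO4 had the highest summed level of the 18 neutrophil markers other than Cd177 and Ly6g (5.90 CPM) and the lowest sum over the whole list of 20 (552 CPM, of which Cd177 was 529 CPM). It was also highest of the 8 in the T cell (168 CPM), B cell and plasma cell (33.5 CPM), monocyte and macrophage (30.2 CPM) and red blood cell lists (45.5 CPM). It had 18 reads of the granule gene Ngp against 0 in KO1 to KO3, and a mitochondrial share of 12.3%. The part of these in its S100a8 and S100a9 levels was not tested.

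The change of Cxcl5 with DSS differed between genotypes by 2.91 on the log2 scale (knockout minus WT) at an unadjusted p = 0.0280 by edgeR, which did not pass adjustment over all genes (adjusted p = 0.987). All 3 knockout mice with DSS were above all 4 without it, while DSSWT3 lay within the range of the untreated WT mice. Without WT2, the untreated WT mouse with 14 reads, the estimate was 1.95.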

How the results depend on the processing

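Without DSS, members higher at an unadjusted p under 0.05 went from 0 to 1 with no filter on low counts and to 1 with all 14 mice in one model (a gene other than Tnf in both), and all genes higher at an adjusted p under 0.05 from 3 to 12 (DESeq2), 7 (no filter) and 0 (at least 10 counts in every mouse). Single mice left out gave 0 to 1 (1 without WT1) and 3 to 4. Between genotypes after DSS, members at an unadjusted p went from 4 to 8 (DESeq2), 2 (no filter), 2 (at least 10 counts), 7 (one model) and 0 (DSSKO1 and DSSKO2 both left out, chosen after seeing the data). All genes at an adjusted p went from 2 to 44 (DESeq2), 32 (no filter), 0 (at least 10 counts) and 1 (both left out). Single mice left out gave 0 to 3 adjusted and 1 to 9 unadjusted members (Mmp9 among the 9) and 0 (without DSSWT2) to 54 genes (without DSSKO3). With at least 10 counts in every mouse 0 members, adjusted or not, were called with DSS in WT mice and 1 in knockout mice, since most members were then not tested. With no filter, and with only the mice of that genotype, adjusted members went from 8 to 6 in knockout and from 3 to 2 in WT mice. Without DSSKO1 and DSSKO2, DSS in knockout mice gave 1 adjusted and 2 unadjusted members and 2188 genes, where single mice left out gave 5 to 9, 7 to 9 and 3345 to 3613. In WT mice single mice left out gave 1 to 3 adjusted and 2 to 4 unadjusted members (Cxcl5, at 2.30, called without WT2) and 2652 to 3275 genes. The interaction had 2 members at an unadjusted p with no filter, 0 with at least 10 counts, 0 without DSSKO1 and DSSKO2, and 0 (as without WT2) to 5 (without KO4) with single mice left out, and no adjusted call.

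Leaving out DSSKO1 and DSSKO2 turned the log2 difference between genotypes after DSS to -0.42 (Cxcl1), -0.82 (Cxcl2), -0.16 (S100a9), -0.21 (Lcn2) and -0.57 (Fosl1), and the interaction to -0.70 (Cxcl1), -0.84 (Cxcl2), -0.61 (S100a8), -0.24 (S100a9), -0.67 (Lcn2) and -0.39 (Tnf). No other alternative turned a member's direction in an edgeR or DESeq2 fit. The cause of these shifts was not tested. Same-numbered mice without DSS shared only a number (r -0.194 to 0.149, own number best in 1 of 4). With a replicate block, possible there only, Tnf had 0.51 and 3 genes were called. Genes of equal length in both tables, added after seeing the data, gave 7 adjusted members with DSS in knockout and 2 in WT mice, since Fosl1 was not tested. Depth limits the values without DSS, where Tnf alone of the 9 genes passed the filter.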
